A study of Mus musculus with 96 samples.

Results

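The livers described here came from 8 male C57BL/6N mice after 16 weeks on diet, 4 fed a high-fat diet (HFD, Research Diets D12492, 60% fat) and 4 fed a chow diet (CD, LabDiet 5001, 13.5% fat). They were chosen by the tissue, diet and weeks on diet in the sample labels, and they make up 8 of the 96 libraries of the series and 8 of its 48 liver libraries. The mice were bought at 4 weeks of age and kept at 22°C with 12 h of light a day and free access to food, and the labels give no transgene, deletion or drug for either group. Each library was poly(A) RNA from homogenized, flash-frozen tissue of a fixed region of the liver of 1 mouse, with an RNA integrity number above 8, and was read on the BGISEQ-500 platform. The diets come from different makers and differ in more than fat, so fat content and the other ingredients cannot be told apart in any comparison below. The mice are called CD401, CD403, CD405 and CD407 and HFD411, HFD414, HFD416 and HFD418, after their labels.

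Under a diet rich in fat, hepatocytes take up fatty acids through carriers such as CD36, esterify them to triglyceride and pack it in droplets coated by perilipins and by the CIDE proteins, which help droplets fuse and grow. The nuclear receptor PPARγ, mainly an adipocyte factor, drives several of these genes when it is present in fatty liver. Longer feeding is known to bring macrophages that carry TREM2, GPNMB and galectin-3 into the tissue and to activate stellate cells, the vitamin A storing cells that lay down fibrillar collagen.

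Values are FPKM (fragments per kilobase of transcript, scaled to library size), a level corrected for transcript length. Of 20155 genes with values, 10113 reached 1 FPKM in at least 4 of the 8 libraries and were tested with limma on log2(FPKM + 1), and fold changes given as log2 are on that scale, which understates the change of low genes. At an adjusted p under 0.05, 682 genes were higher in HFD (6.74% of genes tested) and 69 were lower (0.682%), and the median log2 fold change over all genes tested was 0.09. With a change of at least 1 on the log2 scale besides, called a differentially expressed gene (DEG) here, 122 were higher (1.21%) and 21 lower (0.208%). The 4 HFD values lay wholly above the 4 CD values in 11.9% of all genes tested and wholly below them in 1.97%. They did so in 120 of the 122 higher and all 21 lower DEGs, which follows largely from how DEGs are chosen. A gene below 1 FPKM in any CD mouse could enter the test only with the help of HFD values (687 of the 10113), so counts and medians over the tested members of a list are descriptions. With no filter on low values, 17077 genes were tested, of which 796 were higher (4.66%) and 69 lower (0.404%). The balance of higher against lower genes depended on scaling: 90.8% of the genes that passed were higher as deposited, 79.1% (465 higher, 123 lower) after median ratio scaling, which set the median change to 0.00, and 67.6% (392 higher, 188 lower) after quantile normalization, which moved it to -0.03.

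The HFD mice were not alike. On the first principal component, which held 45.6% of the variance, the CD mice lay between -23.3 and -13.5 and HFD414, HFD416 and HFD418 between 17.9 and 25.5, while HFD411 lay between the groups at 3.21. Of the 122 higher DEGs, 88 had their lowest HFD value in HFD411. Without this mouse 1456 of 10292 genes tested were higher, against 682 of 10113 with it, and 1.01% were lower. There were then 206 and 30 DEGs (139 of the 143 DEGs were still DEGs). List counts without HFD411 given below are to be read against 1456 of 10292. The sum of FPKM of HFD411 (627402) was inside the range of the other libraries (593565 to 637049). Its 10 highest genes, however, held 28.2% of that sum against 21.5% to 25.8% elsewhere. The part of tissue sampling, RNA or the animal itself in this was not tested, and results that turn on HFD411 are given with and without it. Sequencing depth is unknown, since the files hold no counts.

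**Figure D1:**
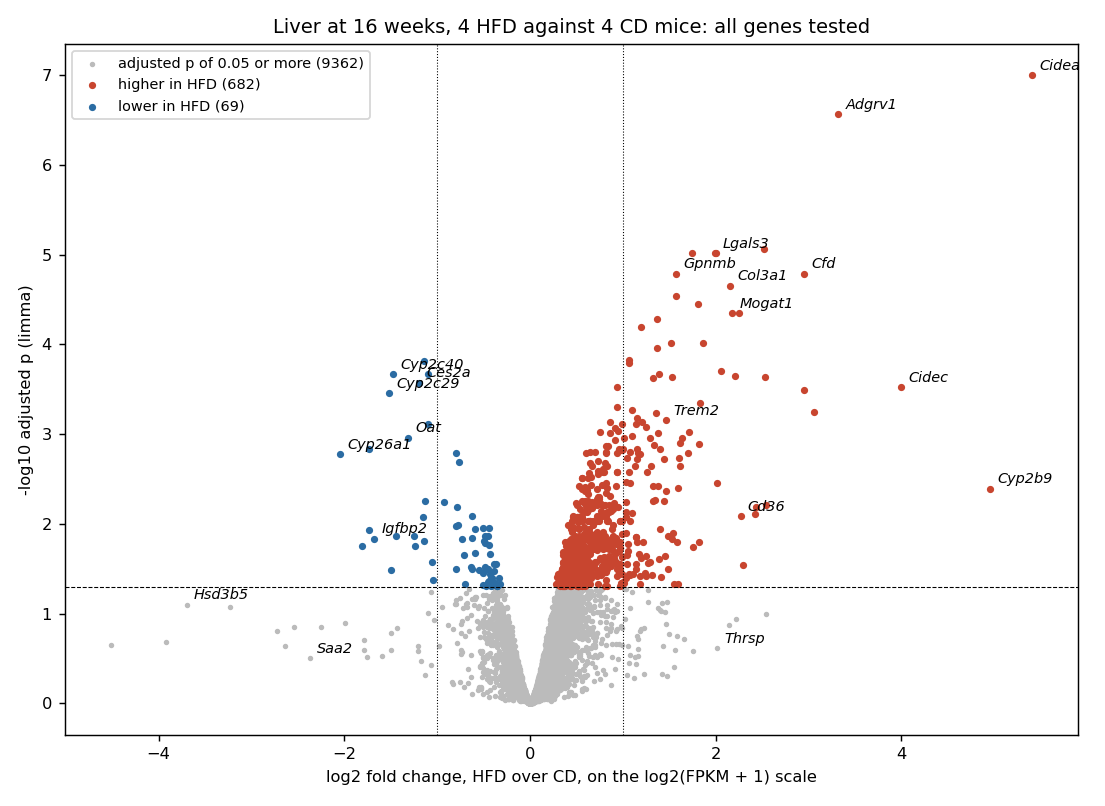
All 10113 genes tested, with the log2 fold change (HFD over CD) on the horizontal axis and -log10 of the adjusted p on the vertical axis; the dashed line is an adjusted p of 0.05 and the dotted lines are log2 changes of -1 and 1. The 682 red genes outnumber the 69 blue ones, Cidea (5.41) stands highest, and Hsd3b5, Saa2 and Thrsp lie below the dashed line in spite of large differences.

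Fat uptake and droplet genes held the largest change of all genes tested, that of Cidea. Of 18 genes on this list, all measured and tested, 13 rose and none fell, 9 of them as DEGs, and the list median was 1.26 against 0.09 for all genes. Of the 18, 4 needed HFD values to enter the test, Cidea among them. The other 14 gave 9 higher calls (median 1.06). The count was also 13 with no filter on low values. The count was 13 without HFD411 and 12 after median ratio scaling. Cidea, whose product sits at contacts between droplets (chr18:67343564-67367794 in GRCm38 as deposited), was at 0.28, 0.20, 0.14 and 0.13 FPKM in CD mice and at 59.6, 60.6, 46.1 and 35.7 FPKM in HFD mice. The gene was barely detected on chow and was at similar levels in all HFD mice, HFD411 included, with a log2 change of 5.41 ± 0.16 (SE, n = 4 a side, adjusted p = 1.0e-07). Cidec, its relative that enlarges droplets (chr6:113424634-113435760), was at 1.39, 1.64, 0.57 and 2.80 FPKM on CD and 24.0, 47.2, 35.5 and 54.0 FPKM on HFD, a 25.1-fold higher mean with the lowest HFD value in HFD411.

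Genes of uptake and esterification were among the 13. Cd36, the fatty acid translocase (chr5:17781690-17888959), was at 25.4, 25.3, 7.28 and 15.3 FPKM on CD and 85.7, 89.5, 74.0 and 84.2 FPKM on HFD. All HFD values were far above all CD values, and the log2 change was 2.27 ± 0.35 (adjusted p = 0.0082). Mogat1, a monoacylglycerol acyltransferase, rose from 0.888 ± 0.304 to 7.57 ± 1.54 FPKM (SD, n = 4), and its level in HFD411 (5.78 FPKM) was the lowest of the HFD group. Pparg itself rose from 3.98 ± 1.099 to 11.2 ± 2.08 FPKM (log2 change 1.305 ± 0.17, adjusted p = 0.0023). Of further genes of lipid entry, Lpl, the lipase that frees fatty acids from circulating triglyceride, was 3.14-fold higher. Fabp4, a fatty acid carrier of adipocytes and macrophages, was 3.11-fold higher. Vldlr, a lipoprotein receptor, was 4.68-fold higher, but at low means of 0.26 FPKM on CD and 1.205 FPKM on HFD. Its log2 change of 0.82 was below that of a DEG.

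Not all genes of droplet coats and turnover passed. Plin2, the main perilipin of hepatocytes, was at 293, 188, 171 and 145 FPKM on CD and 396, 352, 314 and 395 FPKM on HFD (log2 change 0.91 ± 0.19, adjusted p = 0.024), and Fitm1, which takes part in droplet budding, was 2.36-fold higher. Plin4 had a log2 difference of 1.46 that missed the test (adjusted p = 0.097), with values that spread from 1.67 to 8.70 FPKM on CD and from 8.54 to 21.8 FPKM on HFD. Plin5 and Pnpla2, which encode the perilipin that tethers mitochondria and the main triglyceride lipase, had log2 differences of -0.17 and -0.05 and did not pass. Apoa4, a lipoprotein component, was at 558, 629.5, 952 and 1154 FPKM on CD and 1324, 2854, 2403 and 2375 FPKM on HFD. The groups did not overlap, but HFD411 was close to CD407. With 1 mouse left out in turn, Plin2 passed in 3 and Apoa4 in 4 of the 8 fits.

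**Figure D2:**
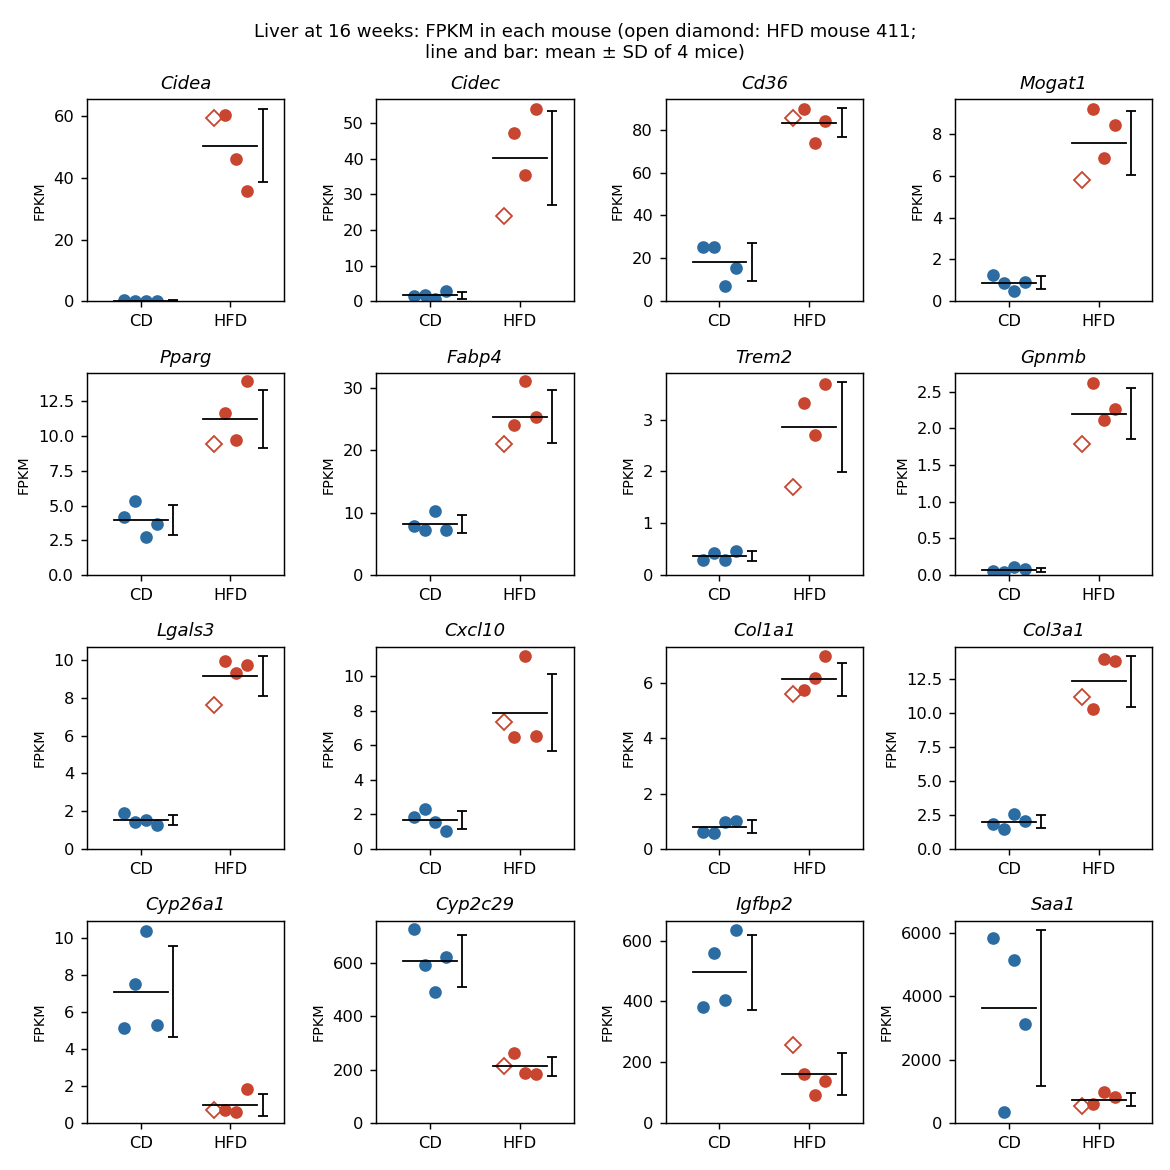
FPKM of 16 genes in each liver (vertical axes, linear, each with its own scale), with CD in blue, HFD in red and HFD411 as an open diamond; lines and bars are the mean ± SD of 4 mice. The groups are apart for every gene shown except Saa1, where CD mice run from 353 to 5851 FPKM and the HFD mice lie between 538 and 991.

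Genes that make fatty acids and triglyceride gave few calls. Of 22 synthesis genes, 20 were tested, and only Gpam passed, by a narrow margin (log2 change 0.51, adjusted p = 0.0498, from 23.8 to 34.6 FPKM on average), and in 2 of 17 alternative settings. The list median was 0.35. Thrsp, a lipogenic gene that responds to carbohydrate and thyroid hormone, was at 20.7, 25.6, 51.4 and 82.9 FPKM on CD and 26.1, 281, 263 and 332 FPKM on HFD. HFD411 lay within the CD range and the other 3 HFD mice above it, and the gene did not pass with HFD411 included (log2 difference 2.01 ± 0.90, adjusted p = 0.24). Without HFD411, 5 genes of the list were higher. Srebf1, the sterol-regulated factor of lipogenesis, and Pklr, the liver pyruvate kinase, had log2 differences of 1.19 and 1.096 (adjusted p = 0.16 and 0.057), and both passed without HFD411. Fasn was at 3.73 to 14.9 FPKM on CD and 8.01 to 41.1 FPKM on HFD, and Scd1 had means of 341.2 and 312.6 FPKM with broad overlap.

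Sterol, bile acid and oxidation genes showed few calls. Of 24 cholesterol genes all were tested and only Tm7sf2, a sterol reductase, passed, at 90.3, 45.5, 55.0 and 43.7 FPKM on CD and 20.8, 31.7, 23.6 and 18.7 FPKM on HFD. Its log2 change was -1.24 ± 0.24, opposite in sign to the list median of 0.15. Of 19 bile acid genes tested none passed (median 0.02). Cyp7a1, the rate-limiting enzyme of bile acid synthesis, ran from 15.3 to 99.4 FPKM within CD and from 3.54 to 98.1 FPKM within HFD. Of 34 genes of fatty acid oxidation and ketogenesis only Ucp2, a mitochondrial carrier, passed (median 0.13). Ucp2 was at 11.5, 10.6, 8.44 and 10.2 FPKM on CD and 13.7, 34.3, 27.7 and 31.9 FPKM on HFD, and passed in 11 of 17 alternatives. Cpt1a, the gate of mitochondrial oxidation, had a log2 difference of 0.17 and did not pass. Cyp4a10 and Cyp4a14, microsomal fatty acid hydroxylases and PPARα targets, did not pass (adjusted p = 0.34 and 0.57). Cyp4a10 was at 934.8, 1407, 367.9 and 463.6 FPKM on CD and 637.5, 469, 121.2 and 233.1 FPKM on HFD, so that 2 HFD mice were below every CD mouse and 2 were inside the CD range. Cyp4a14 had means of 1073 and 532 FPKM, with overlapping groups.

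Glucose handling genes gave 1 higher and 1 lower call among 24 tested (median 0.09). Igfbp2, a circulating binder of insulin-like growth factors (chr1:72824480-72852474), was at 381.8 to 636.8 FPKM on CD and at 254.9, 161.7, 91.7 and 136.6 FPKM on HFD. All HFD values were below all CD values, with a log2 change of -1.68 ± 0.30 (adjusted p = 0.015), and the smallest drop was in HFD411. Pcx, pyruvate carboxylase, was 1.304-fold higher (adjusted p = 0.042), a call that held in 7 of 17 alternatives and after neither rescaling. Pck1, the cytosolic enzyme that commits carbon to glucose, was at 1206, 1545, 843 and 1130 FPKM on CD and 1040, 616.8, 601.3 and 612.6 FPKM on HFD. The log2 difference of -0.73 missed the test (adjusted p = 0.086) and passed without HFD411, the only HFD mouse inside the CD range. G6pc had means of 157 FPKM in both groups.

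Of 9 genes of hepatic insulin resistance that the study names, 8 were tested (Tlr4 was too low) and only Sptlc2, a subunit of the first enzyme of ceramide synthesis, rose, from 2.12 ± 0.17 to 3.72 ± 0.39 FPKM (log2 change 0.60 ± 0.089, adjusted p = 0.0040). The study chose these genes with these samples in view, so their direction is not independent evidence. Sptlc1, the partner subunit, had a log2 difference of 0.32 (adjusted p = 0.060). Hspa5, an endoplasmic reticulum chaperone, was at 209, 139.9, 530.1 and 209 FPKM on CD and 526.5, 157.5, 948 and 209 FPKM on HFD, so that 1 CD and 2 HFD mice were high in a pattern that did not follow diet. Prkce, Ppp2ca, Ikbkb, Ern1 and Eif2ak3 had log2 differences between 0.08 and 0.60 and did not pass. On the wider list of 18 ceramide and sphingolipid genes tested, Sptlc2 was again the only call.

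The drug-metabolising cytochromes P450 held calls in both directions, 1 higher and 5 lower of 24 tested (median -0.19). Of the 24, 2 needed HFD values to enter the test, among them Cyp2b9, the higher one. The other 22 gave 0 higher and 5 lower calls (median -0.29). With no filter 1 of 32 was higher and 5 were lower. Cyp2b9, which is normally more abundant in female liver, was at 4.19, 1.71, 0.06 and 1.09 FPKM on CD and 36.8, 100.6, 57.2 and 128 FPKM on HFD (log2 change 4.96 ± 0.57, adjusted p = 0.0041). Its neighbour Cyp2b10 was not tested and lay between 0.25 and 1.42 FPKM in all libraries. Cyp2c29 was at 728, 591, 489 and 621 FPKM on CD and 215, 261, 186 and 185 FPKM on HFD, a 2.87-fold drop with no overlap. Cyp2c54, Cyp2c37 and Cyp2c50 also fell, by 1.45, 1.15 and 0.63 on the log2 scale, as did Cyp2c40 outside this list (1.48). Members of the Cyp2b and Cyp2c families are near copies of each other, so reads may have been split between them and the levels of single genes are uncertain. Cyp1a2, a target of the aryl hydrocarbon receptor, fell from 258, 269, 265 and 367 FPKM on CD to 202, 162, 158 and 142 FPKM on HFD. Cyp2e1, an abundant pericentral member, had means of 5710 and 5540 FPKM and did not pass.

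Cyp26a1, which clears retinoic acid and is itself induced by it, had the most negative log2 change of the 21 lower DEGs. It was at 5.14, 7.5, 10.4 and 5.31 FPKM on CD and 0.68, 0.71, 0.58 and 1.84 FPKM on HFD (chr19:37697732-37701536, log2 change -2.05 ± 0.24, adjusted p = 0.0017). Of 16 retinoid genes tested 2 were higher and 1 lower (median 0.31), and the higher ones were Rarres1, a retinoic acid responsive gene (2.04-fold), and Aldh1a1, a retinal dehydrogenase (1.48-fold). Rarres1 passed in 8 and Aldh1a1 in 9 of 17 alternatives, each in 2 of the 8 fits with 1 mouse left out, and neither passed after median ratio scaling. The 250 bases before the start of Cyp26a1, at chr19:37697558-37697807 on the plus strand in GRCm38.p6 of RefSeq, are shown because they hold a direct repeat of the core letters bound by retinoic acid receptors, spaced by 5 bases. The RefSeq start lies inside the gene as the files place it. The motif searched was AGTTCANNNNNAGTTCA on both strands, and no other spelling of the element was counted. This spelling was present in 7 of 32851 windows of this length (0.021%), and here it started 32 bases before the transcription start, in capitals.
Cyp26a1: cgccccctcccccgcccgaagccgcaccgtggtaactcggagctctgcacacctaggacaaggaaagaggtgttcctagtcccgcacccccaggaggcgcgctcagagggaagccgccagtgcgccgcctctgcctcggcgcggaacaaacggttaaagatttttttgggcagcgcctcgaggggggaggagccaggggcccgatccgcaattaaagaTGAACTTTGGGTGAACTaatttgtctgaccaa

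Genes under NRF2 and of glutathione metabolism gave 5 higher and no lower calls of 26 tested (median 0.33), with 8 higher without HFD411. Hmox1, heme oxygenase, was at 6.67, 4.65, 5.22 and 3.39 FPKM on CD and 9.54, 13.6, 16.8 and 16.1 FPKM on HFD. Srxn1, which repairs peroxiredoxins, was at 10.8 to 13.4 FPKM on CD and 21.7 to 24.9 FPKM on HFD, a 1.88-fold change. Gpx4, which reduces lipid peroxides, was 1.70-fold higher and Mgst3, a microsomal glutathione transferase, 2.38-fold higher. Nqo1, a classical NRF2 target, was 1.73-fold higher. Mgst3 passed in 11 of 17 alternatives and Nqo1 in 5 of 16, in 1 of the 8 fits with 1 mouse left out and after neither rescaling.

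Of 23 male-biased genes that depend on growth hormone pulses, all tested, 3 were lower and none higher (median -0.35). They were C8b, a complement component (145 ± 27.1 to 66.1 ± 14.7 FPKM), Susd4, and Mup3, a major urinary protein (9128 ± 710 to 5774 ± 1682 FPKM). Susd4 passed in 11 and Mup3 in 5 of 17 alternatives, Mup3 after neither rescaling. Hsd3b5, a male-specific steroid dehydrogenase, was at 37.6, 107, 95.1 and 74.8 FPKM on CD and 30.6, 0.69, 10.2 and 0.78 FPKM on HFD. Every HFD value was below every CD value, with a wide spread within HFD, and the gene did not pass (log2 difference -3.70 ± 1.01, adjusted p = 0.079), and it passed without HFD411. Of 22 female-biased genes only 8 were tested, with Cyp2b9 higher and Cyp2c40 lower (median 0.01). Of the 8, 3 needed HFD values to enter the test, Cyp2b9 among them. With no filter 2 of 22 were higher and 2 were lower (median 0.05).

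**Figure D3:**
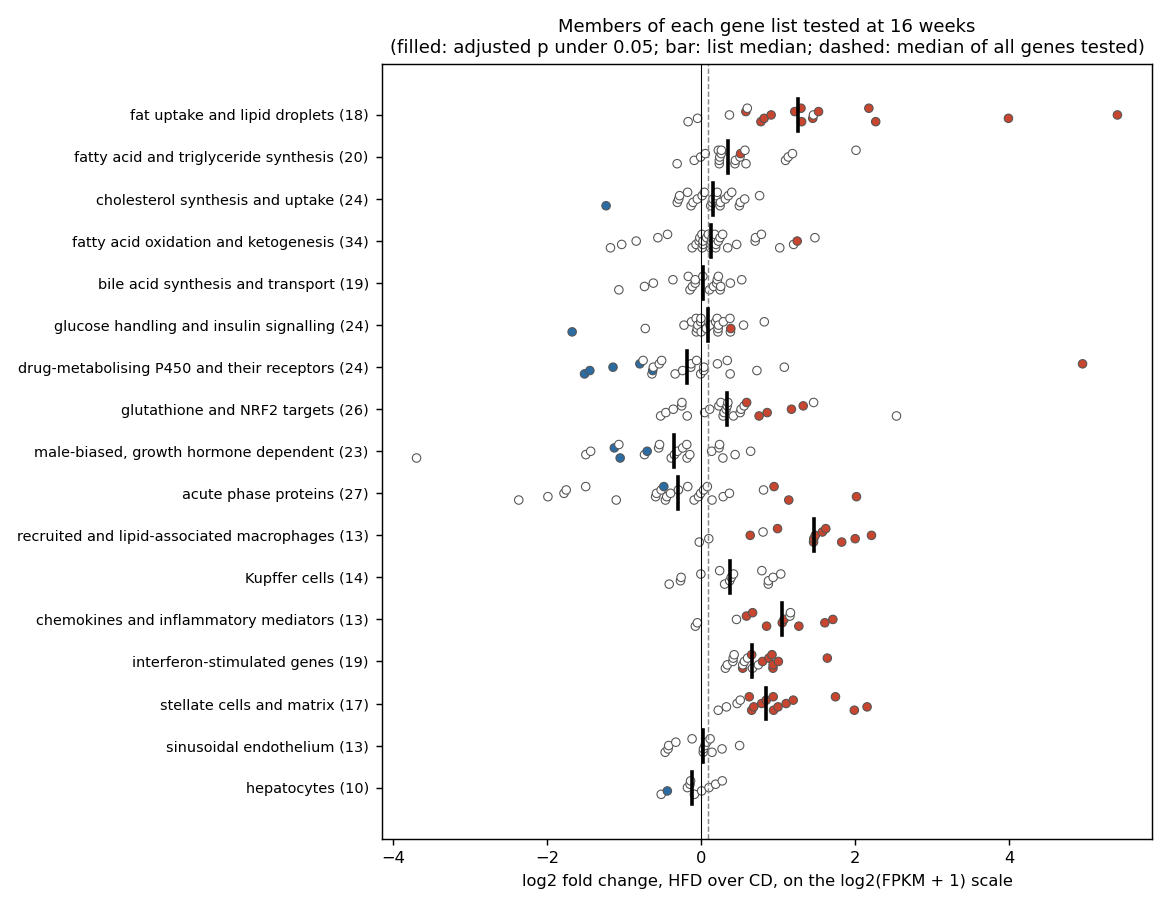
Log2 fold change (HFD over CD) of each tested member of 17 gene lists, with the number tested in brackets; filled points passed an adjusted p of 0.05, black bars are list medians and the dashed line is the median of all genes tested (0.09). Red points crowd the fat uptake, macrophage, chemokine, interferon and matrix lists, while the sterol, bile acid, oxidation and endothelial lists lie around 0 with at most 1 filled point each.

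Genes of recruited and lipid-associated macrophages were higher in HFD where they passed, and none was lower. Of 20 on the list 13 were tested and 10 were higher, with 11 without HFD411 and 9 after median ratio scaling. Of the 13, 4 needed HFD values to enter the test, Trem2, Gpnmb and Mmp12 being below 1 FPKM in every CD mouse. With no filter all 20 were tested and 15 were higher (median 0.83). Trem2, the lipid receptor of these cells, was at 0.29, 0.43, 0.30 and 0.47 FPKM on CD and 1.71, 3.33, 2.71 and 3.68 FPKM on HFD. Gpnmb, a lysosomal glycoprotein, was at 0.04 to 0.11 FPKM on CD and 1.79 to 2.62 FPKM on HFD, and Mmp12, macrophage elastase, at 0.07 to 0.53 and 3.34 to 6.60 FPKM. Lgals3, galectin-3 (chr14:47373860-47386167), was at 1.92, 1.42, 1.56 and 1.25 FPKM on CD and 7.60, 9.96, 9.30 and 9.76 FPKM on HFD (log2 change 2.00 ± 0.11, adjusted p = 9.6e-06). Cd68, Cd63, Clec7a and Tyrobp, which encode a macrophage sialoprotein, a tetraspanin of endosomes, the dectin-1 receptor and a signalling adaptor, were 3.48-fold, 4.08-fold, 5.34-fold and 3.03-fold higher. HFD411 had the lowest HFD value of each of these 4 genes. In whole tissue, more cells of a type and more RNA of these genes per cell cannot be told apart.

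Kupffer cells are the resident macrophages of liver. Of 14 of their genes tested none passed (median 0.38), while 7 were higher without HFD411. Clec4f, found only on Kupffer cells, was at 18.3, 13.8, 11.7 and 11.2 FPKM on CD and 10.6, 16.2, 18.1 and 21.7 FPKM on HFD, and Timd4, a marker of long-lived residents, at 1.07 to 1.81 and 0.63 to 1.22 FPKM. C1qa, a complement subunit shared by many macrophages, was at 16.1 to 22.7 FPKM on CD and 17.5 to 44.0 FPKM on HFD, with the lowest HFD value in HFD411. Whether recruited and resident macrophage lists differed from each other was not tested. Lysosomal genes, many of them abundant in macrophages, gave 6 higher calls of 16 tested (median 0.32), among them Hexa, a lysosomal hydrolase (2.10-fold).

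Chemokines and other inflammatory mediators gave 8 higher and no lower calls of 13 tested, and 13 of the 26 on the list, Tnf, Il1b and Il6 among them, were too low to test. Of the 13 tested, 4 needed HFD values to enter, Ccl2 and Tlr2 among them, and with no filter 11 of 26 were higher (median 0.46). Cxcl10, an attractant of T cells induced by interferon, was at 1.87, 2.31, 1.57 and 1.05 FPKM on CD and 7.38, 6.47, 11.2 and 6.54 FPKM on HFD. Ccl2, an attractant of monocytes, was at 0.15 to 0.37 FPKM on CD and 2.27, 2.14, 5.14 and 2.38 FPKM on HFD, highest in HFD416. Cxcl1, a neutrophil attractant, Tlr2, a sensor of microbial lipopeptides, and Vcam1, an adhesion molecule, were 2.61-fold, 4.91-fold and 2.92-fold higher. Cxcl1 passed in 12 of 17 and Vcam1 in 10 of 16 alternatives. Ccl5, an attractant of T cells and monocytes, was highest in HFD416 (10.8 FPKM, with 0.89 to 2.97 FPKM in the other HFD mice) and did not pass. Of 11 genes on the MHC class II list 5 were tested, and only Ctss, the protease that trims the invariant chain, passed. All 5 passed without HFD411, but 2 of the 5 needed HFD values to enter the test. With no filter 1 of 11 was higher (median 0.805). Ctss passed in 12 of 17 alternatives. Cd74, the invariant chain, was at 15.8 to 30.6 FPKM on CD and 27.8, 71.2, 112.5 and 64.4 FPKM on HFD.

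Interferon-stimulated genes gave 9 higher and no lower calls of 19 tested (median 0.66 against 0.09 for all genes). All 19 had a positive log2 value, and the share of all genes with one was not counted. The count of higher calls was 12 without HFD411, 7 after median ratio scaling and 5 after quantile normalization. With no filter on low values 7 of 20 were higher. Isg15, a ubiquitin-like modifier, was at 9.5, 7.76, 8.36 and 7.93 FPKM on CD and 13.1, 14.9, 23.6 and 15 FPKM on HFD, so the groups were apart and HFD416 was highest. Usp18, which removes that modifier, was 2.11-fold, Ifit3 2.14-fold and Ifi27l2a 3.70-fold higher, Ifit3 passing in 10 of 17 alternatives. The 250 bases before the starts of Isg15 (chr4:156200819-156201068, minus strand) and Cxcl10 (chr5:92348890-92349139, minus strand), both in GRCm38.p6 of RefSeq, are shown because they hold the letters of the interferon-stimulated response element. Isg15 is on the interferon list and Cxcl10 on the chemokine list, and whether the genes vary together was not tested. The motif searched was GAAANNGAAA on both strands. It was in 978 of 32851 windows (2.98%), in 3.18% of the 8189 tested genes with a window, and in 10 of the 15 list members with a window. In Isg15 there were 3 matches that overlap each other, starting 78, 72 and 66 bases before the transcription start, and in Cxcl10 there was 1, all in capitals.
Isg15: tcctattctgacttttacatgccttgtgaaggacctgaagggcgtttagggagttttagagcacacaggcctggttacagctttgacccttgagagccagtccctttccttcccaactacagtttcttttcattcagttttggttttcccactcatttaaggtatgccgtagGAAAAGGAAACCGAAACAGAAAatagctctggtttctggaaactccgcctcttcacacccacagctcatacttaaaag
Cxcl10: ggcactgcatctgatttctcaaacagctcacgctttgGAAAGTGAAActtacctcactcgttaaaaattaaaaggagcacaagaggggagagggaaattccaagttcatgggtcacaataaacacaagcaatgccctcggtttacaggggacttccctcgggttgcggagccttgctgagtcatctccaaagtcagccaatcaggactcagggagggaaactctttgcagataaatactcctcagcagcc

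Lymphocyte genes did not reach the filter of the main test. None of 12 T and NK cell genes and none of 8 B cell genes reached the filter, and their summed levels were 0.93 to 2.78 and 1.67 to 3.34 FPKM on CD against 1.93 to 6.67 and 1.56 to 4.75 FPKM on HFD, with the ranges overlapping. Of 8 neutrophil genes 2 were tested and neither passed. With no filter 1 of 12 T and NK cell genes was higher, and 0 of 7 B cell genes with values and 0 of 8 neutrophil genes were. Cx3cr1, a receptor of monocytes and macrophages, was also too low to test, at 0.12 to 0.21 FPKM on CD and 0.38, 0.55, 1.33 and 0.59 FPKM on HFD. Of 12 liver immune module genes that the study names, 3 were tested and none passed (Jun, Fos and Junb). With no filter all 12 were tested and 2 were higher (median 0.37). This list too was drawn up with these samples in view.

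Matrix and stellate cell genes gave 13 higher and no lower calls of 17 tested, out of 26 on the list, with 15 higher without HFD411 and 13 under both other scalings. Of the 17, 3 needed HFD values to enter the test, Col1a1 and Timp1 among them, and with no filter 18 of 26 were higher (median 0.64). Col1a1, a chain of type I collagen, was at 0.61, 0.59, 0.98 and 1.03 FPKM on CD and 5.62, 5.76, 6.18 and 6.97 FPKM on HFD. Its partner Col1a2 was at 1.34, 1.21, 1.61 and 1.81 FPKM on CD and 7.01, 7.30, 6.95 and 8.07 FPKM on HFD, and Col3a1, the type III chain, at 1.87, 1.45, 2.59 and 2.08 against 11.2, 10.3, 14.0 and 13.8 FPKM. In these 3 genes the HFD mice were close to each other, HFD411 included. Col4a1, of basement membrane, was 2.38-fold higher and Pdgfrb, the growth factor receptor of stellate cells, 2.01-fold higher. Timp1, an inhibitor of matrix proteases, was listed at 0.00 to 0.13 FPKM on CD and lay at 1.19 to 1.62 FPKM on HFD. Sparc, a collagen-binding protein the study follows, rose from 10.0 ± 0.72 to 25.5 ± 5.06 FPKM (log2 change 1.25 ± 0.14, adjusted p = 0.00083). Acta2, the actin of activated stellate cells, was below the filter, at 0.20 to 0.51 FPKM on CD and 0.61 to 1.18 FPKM on HFD.

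Markers of other cells were examined beside these lists. Of 7 adipocyte genes Cidec, Cfd and Fabp4 were tested and were higher, although Cidec and Cfd needed HFD values to enter the test. Cfd, adipsin, was at 0.53, 0.13, 0.09 and 0.82 FPKM on CD and 7.74, 11, 9.84 and 9.85 FPKM on HFD. Of the defining adipocyte genes, Lep and Plin1 were listed at 0 in all 8 libraries, and Adipoq and Retn at 0.07 FPKM or less. Endothelial genes of the sinusoid gave no call of 13 tested (median 0.03), with overlapping sums of FPKM in both groups. Of 10 bile duct genes 3 were tested, and Krt23 (5.75-fold) and Spp1 (1.57-fold) were higher. Krt23 had a mean of 0.785 FPKM on CD and needed HFD values to enter the test. Spp1 is also on the list of recruited and lipid-associated macrophages. With no filter 2 of 10 bile duct genes were higher (median -0.01). The keratins Krt7 and Krt19 were too low for the filter. Blood genes were not called (5 tested, median 1.07), though their sum ran from 216.6 to 355 FPKM on CD and from 267 to 1193 FPKM on HFD, highest in HFD418. Pancreatic acinar genes were also uncalled (2 tested), with a sum of 102.5 FPKM in CD407 and 17.3 to 26.8 FPKM in the other 7 libraries. The part of such cells in the other results was not tested.

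Hepatocyte genes were highly expressed in every library, as the tissue label requires. Alb, serum albumin, was at 29210 to 36250 FPKM in all 8 libraries. Of 10 hepatocyte genes Cps1, the entry enzyme of the urea cycle, was lower (423 ± 64.5 to 309 ± 19.1 FPKM) and the rest did not pass (median -0.11). Cps1 passed in 5 of 17 alternatives, in 1 of the 8 fits with 1 mouse left out and after neither rescaling. Among 17 pericentral genes 3 were lower (median -0.08), led by Oat, ornithine aminotransferase, which was at 576, 499, 369 and 628 FPKM on CD and 205.3, 212.2, 186 and 214 FPKM on HFD. Among 15 periportal genes 2 were lower and 1 higher (median -0.30), and Etnppl, a phospholyase, fell from 41.1 to 23.8 FPKM while Hsd17b13, a droplet protein of hepatocytes, rose from 307.7 to 463.1 FPKM. Amino acid catabolism and urea cycle genes gave 2 lower calls of 23 (median -0.23), Cps1 and Hpd, which breaks down tyrosine. Hsd17b13 passed in 11 and Hpd in 10 of 17 alternatives.

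Acute phase genes had no common direction. Of 27 tested, 3 were higher (Saa3, Steap4 and Il1rn) and C3 was lower (median -0.30). Saa3, the serum amyloid made largely by macrophages and fat, was at 10.2, 9.46, 16.8 and 15.1 FPKM on CD and 64.7, 32.6, 73.1 and 54.3 FPKM on HFD. Of the hepatic forms, Saa1 was at 5851, 353, 5151 and 3130 FPKM on CD and 538, 592, 991 and 814 FPKM on HFD, and did not pass (log2 difference -1.75, adjusted p = 0.30). CD403 was lower than every HFD mouse, and without it Saa1 passed (log2 change -2.68, adjusted p = 0.0025), as did Saa2 (-3.66, adjusted p = 0.0032). Each of the 2 genes passed in this 1 of 17 alternatives only. Saa1 and Saa2 are near copies, so their single levels are uncertain. Steap4, a metalloreductase, was 2.27-fold higher, C3, the central complement factor, fell from 2389 ± 218 to 1703 ± 102 FPKM, and Hamp, hepcidin, differed by -1.99 on the log2 scale without passing. Steap4 passed in 10 and C3 in 12 of 17 alternatives, C3 not after quantile normalization.

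Stress and secreted factors gave few calls. Of 23 genes of the unfolded protein and integrated stress responses only Atf3 passed (median 0.45). Of these 23, Atf3 alone needed HFD values to enter the test, and with no filter 2 of 26 were higher (median 0.445). Atf3, a transcription factor induced by many stresses, was at 0.30, 0.84, 0.32 and 0.29 FPKM on CD and 5.56, 2.97, 2.39 and 4.10 FPKM on HFD. Of 23 secreted factors Sparc and Inhbe were higher (median 0.23). Gdf15, a stress hormone that lowers food intake, was at 13.6, 9.36, 1.48 and 3.07 FPKM on CD and 67.2, 30.3, 12.1 and 20.1 FPKM on HFD, overlapping through HFD416, and it did not pass (log2 difference 2.15 ± 0.72, adjusted p = 0.13). Fgf21, a fasting hormone, was at 34.2 FPKM in HFD411 and 7.78 to 9.52 FPKM in the other HFD mice, with 1.26 to 11.8 FPKM on CD. Hgf and Serpinb1a, which the study follows, differed by 0.24 and -0.51 on the log2 scale and did not pass. Of 16 immediate early genes 12 were tested, and Atf3 and Klf6 (3.07-fold) were higher (median 0.79). Of the 12, 3 needed HFD values to enter the test, Atf3 among them. With no filter 4 of 16 were higher (median 0.42). Jun and Fos were at 55.7 and 27.1 FPKM in HFD411, 4.77 to 42.4 and 1.19 to 3.27 FPKM in the other HFD mice and 1.69 to 23.6 and 0.30 to 3.95 FPKM on CD, and neither passed. Junb was at 10.9 to 21.7 FPKM on CD and 9.30 to 23.0 FPKM on HFD.

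**Figure D4:**
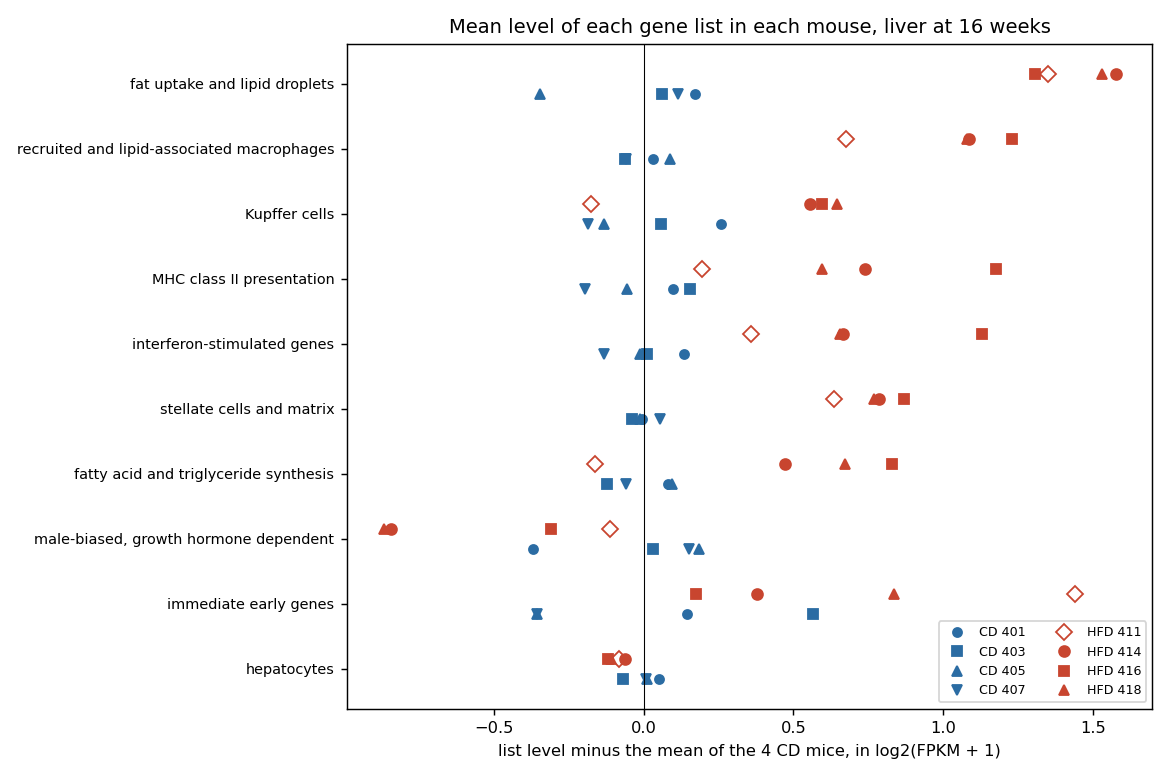
Mean log2(FPKM + 1) of the genes of 10 lists in each mouse, as the difference from the mean of the 4 CD mice (horizontal axis); blue points are CD mice, red points HFD mice, and the open diamond is HFD411. HFD411 lies with the other HFD mice for fat uptake (4.94 against 4.90 to 5.17 before subtraction), within the CD range for Kupffer cell genes (2.58 against 2.57 to 3.02), below it for fatty acid synthesis genes (4.36 against 4.40 to 4.62), and above every other mouse for immediate early genes (3.41).

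Housekeeping lists held few calls. Respiratory chain and ATP synthase genes gave 1 call, Cox7a1, of 76 tested, although 73 of the 76 had a positive log2 value. Their median was 0.17, and 0.07 after median ratio scaling, against 0.09 and 0.00 for all genes. Without HFD411, 15 of these genes were higher. Cytosolic ribosomal protein genes gave 1 call, Rpl31, of 79 tested (median -0.03). Clock genes (16 tested) and proliferation genes (3 tested) gave none, with medians of -0.03 and 0.17. Of 18 apolipoprotein and lipoprotein genes tested Apoa4 and Apoc2, the activator of lipoprotein lipase (1.95-fold), were higher and Tm6sf2, which helps load lipid on secreted particles, was lower (1.602-fold). Cox7a1 passed in 12 of 16, Rpl31 in 10 of 17, Apoa4 in 12 of 17 and Tm6sf2 in 13 of 17 alternatives.

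Beyond the lists, several of the largest changes were in genes not tied to fat storage. Adgrv1, a very large adhesion receptor known from the inner ear (chr13:81095066-81633388), was at 2.42, 2.51, 1.80 and 2.35 FPKM on CD and 36.2, 28.7, 34.6 and 27.4 FPKM on HFD, and it passed under all 17 alternative settings. Ly6d, a membrane-anchored protein, was 11.4-fold higher, Osbpl3, an oxysterol-binding protein, 17.5-fold and Serpina7, thyroxine-binding globulin, 5.50-fold. Osbpl3 had low means of 0.43 FPKM on CD and 7.52 FPKM on HFD, and Ly6d had means of 1.93 and 22.1 FPKM. Osbpl3 was below 1 FPKM in every CD mouse and Ly6d in CD403, so both needed HFD values to enter the test. Lgals1 (galectin-1), Anxa2 (annexin A2) and S100a11, which bind sugars, membranes and calcium, were 8.41-fold, 6.65-fold and 5.22-fold higher. Ubd, a ubiquitin-like protein induced by cytokines, was listed at 0.00 to 1.09 FPKM on CD and lay at 3.79 to 13.7 FPKM on HFD, lowest in HFD411. Ifi27l2b was 6.18-fold higher, and Rad51b, a recombination protein, 5.18-fold, although Rad51b failed the test in 5 of the 17 alternatives.

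Among the lower DEGs, Serpine2, a protease inhibitor, was at 9.43, 12.5, 19.5 and 15.3 FPKM on CD and 6.79, 1.91, 3.45 and 2.13 FPKM on HFD. Cadm4, an adhesion molecule, fell 4.82-fold, Avpr1a, the vasopressin receptor of liver, 3.51-fold, Ces2a, a carboxylesterase that hydrolyses acylglycerols, 2.30-fold, and Raet1e, a ligand of an activating receptor of NK cells, 2.87-fold. Serpine2 passed in 13 and Avpr1a in 12 of 17 alternatives. E030018B13Rik, an uncharacterised gene, fell 8.07-fold and Gapdh-ps15 4.73-fold. E030018B13Rik was low, at 1.31 to 3.45 FPKM on CD and 0.02 to 0.68 FPKM on HFD, with a log2 change of -1.25. It passed in 7 of the 8 fits with 1 mouse left out. Gapdh-ps15 is a pseudogene of the abundant Gapdh, so its reads may belong to other copies and its level is uncertain.

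The study followed both diets from week 4 to week 24, and each week has its own mice, so no animal or control is shared between weeks. At week 12, 58 of the 122 higher DEGs (47.5%, and 56.3% of that week's own higher DEGs) were DEGs in the same direction, at week 20 it was 45 (36.9%, and 55.6% of 81), at week 8 31 (25.4%, and 34.1% of 91), at week 24 24 (19.7%, and 82.8% of 29) and at week 4 none of 3. Of the 21 lower DEGs, 8 recurred at week 12 (88.9% of that week's 9), 11 at week 20, 7 at week 8, 5 at week 24 and none at week 4. No gene was a DEG in opposite directions at week 16 and another week. In all, 38 higher and 6 lower DEGs were DEGs in no other week, and 10 genes were DEGs in 4 of the other 5 weeks, Adgrv1, Cd36, Ly6d, Mogat1, Ifi27l2b, Cadm4 and Cyp26a1 with Gpc1, Tceal8 and Uap1l1, the last 3 being chosen here after their values were seen.

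The difference between weeks was tested too. In a joint fit of all 48 liver libraries the diet effect of week 16 differed from that of week 12, of week 20 and from the mean of the other 5 weeks in 0 of 10879 genes by limma, with 102, 373 and 244 genes at an unadjusted p under 0.05. Side by side, Cidea changed by 4.14, 5.41, 4.74 and 4.51 on the log2 scale at weeks 12, 16, 20 and 24, past the test each time, and was too low to test before. Mogat1 changed by 2.52, 2.29, 2.18, 1.94 and 1.72 from week 8 to week 24. Col1a1 changed by 0.10, 1.43, 1.75, 1.99, 1.35 and 1.56 from week 4 to week 24, with the smallest SE at week 16 (0.11 against 0.20 to 0.73 in other weeks), and it passed at weeks 12 and 16. Lgals3 was alike, with 1.01 at week 12, 2.00 at week 16 and 1.68 ± 0.51 at week 20, where it did not pass. Oat, lower at week 16 by 1.31, had a value of 0.61 and passed in the higher direction at week 8. Its difference between week 16 and the other weeks was -0.95 and did not pass.

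**Figure D5:**
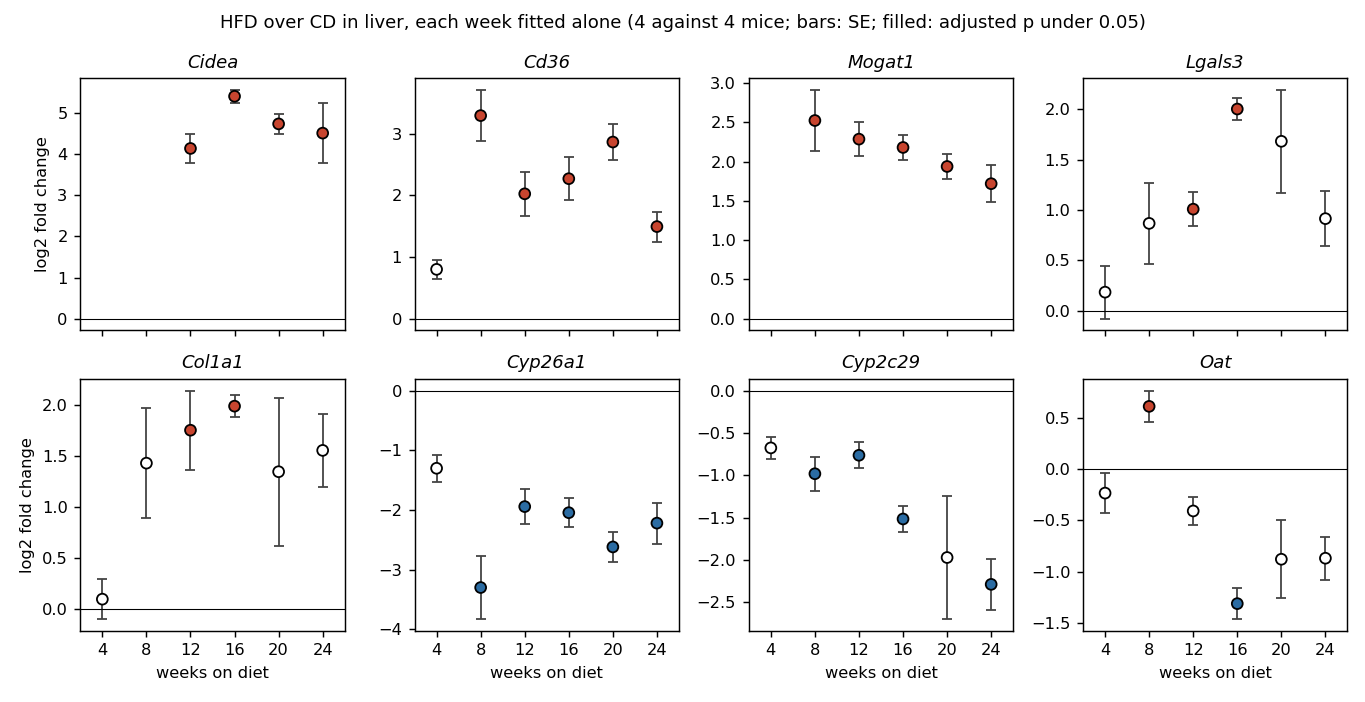
Log2 fold change (HFD over CD) of 8 genes in liver at each week, with each week fitted alone on 4 HFD and 4 CD mice; bars are SE, filled points passed an adjusted p of 0.05, and weeks at which a gene was too low to test are left out. Cd36, Mogat1 and Cyp26a1 passed at every week from 8 on, whereas Oat has opposite signs at week 8 (0.61) and week 16 (-1.31).

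The islets of the same 8 mice were also sequenced, and there 988 of 11691 genes passed (8.45%, 386 higher and 602 lower in HFD). Of the 122 higher liver DEGs 74 were tested in islets, 6 were higher and 3 lower there, and their median log2 value in islets was 0.10. Of the 21 lower ones 7 were tested, with 2 lower and 1 higher. Lpl rose in liver by 1.297 and fell in islets by 1.64 on the log2 scale (22.0 to 6.42 FPKM on average), and Lgals1 rose in liver by 2.95 and fell in islets by 0.64. Serpina7, Mmp12 and Hexa were higher in both tissues, and Oat and C8b lower in both. Both tissues came from the same animals, and the difference between tissues was not tested.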

How the data were processed

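RNA-seq of liver from 4 HFD and 4 CD mice at week 16 was analysed, with the other liver weeks and the islets of the same mice for comparison. The authors deposited 1 table of FPKM per gene and library, and no counts, so no count model was run and depth is unknown. The submitters' processing notes name HISAT2 2.0.4, Bowtie2 2.2.5, RSEM 1.1.12 and DESeq2 and the build GRCm38.p5. RSEM shares reads between similar genes by estimation, so near copies (Cyp2b, Cyp2c, Saa and Mup genes and pseudogenes) are uncertain, as are overlapping genes, since the use of strand is not given in the sources used here. Of 21990 genes, 20155 had values. Symbols were matched to RefSeq by gene ID (21823 matched, 1273 updated).

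Genes that reached 1 FPKM in no fewer than 4 of 8 livers went into limma 3.58.1 (R 4.3.3, statmod 1.5.0) on log2(FPKM + 1) with trend and robust moderation and Benjamini-Hochberg adjustment, 2-sided, HFD over CD. The fit was tested on simulated data. Separate mice are the replicates. Named genes are the 15 largest changes each way among DEGs whose groups do not overlap, up to 8 members per list and others needed to describe it, and genes the study names. The lists and the choice of libraries were made with earlier results of these data known. Alternatives were other pseudocounts (0.1 and 0.5), no filter or 5 FPKM, median ratio and quantile scaling, array weights, no trend, each mouse left out, and 1 fit over all 48 liver libraries. Summaries and plots used Python 3.11.15, pandas 2.3.3, numpy 2.4.6 and matplotlib 3.10.9. Promoter windows of 250 bases came from RefSeq (GRCm38.p6). A few genes are not reported here.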

Additional observations from a re-analysis of the deposited data

Results flagged for a closer look

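In each group of 4 mice, the highest or lowest value was compared with its nearest neighbour (Dixon's test), for 138 genes and for the mean level of each gene list, which made 360 groups. Of these, 27 held a mouse far from the other 3, and 9 of the 27 were HFD411. Chance flags about 1 in 20 groups only where groups are independent and values normally distributed. Here genes were compared as untransformed FPKM and the groups came from the same mice, so 27 cannot be set against that rate. No explanation was tested.

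HFD411 was far above the other HFD mice in 4 genes: Pdk4, a kinase that restrains glucose oxidation, was at 76.1 FPKM (1.13 to 9.03 in the others), Fos at 27.1 FPKM (1.19 to 3.27), Fgf21 at 34.2 FPKM (7.78 to 9.52) and Pck1 at 1040 FPKM (601.3 to 616.8). It was below them in Lgals1 at 62.1 FPKM (121.9 to 132), S100a11 at 35.0 FPKM (54.8 to 56.6), Cox7a1 at 3.85 FPKM (5.96 to 6.27) and the Kupffer cell list at a mean log2 level of 2.58 (3.31 to 3.40), and above them in Cadm4, a gene lower in HFD, at 2.63 FPKM (0.81 to 1.11).

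Among the other HFD mice, HFD416 was high in Ccl2 at 5.14 FPKM (2.14 to 2.38) and Ppp2ca at 60.4 FPKM (53.2 to 53.4), and low in Ly6d at 17.6 FPKM (22.9 to 23.9) and the bile duct list at 1.31 (1.39 in the others). HFD414 was high in Hexa at 61.1 FPKM (41.8 to 44.1), and HFD418 in Cyp26a1 at 1.84 FPKM (0.58 to 0.71).

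Among CD mice, CD407 was high in Cyp2c37 at 300.8 FPKM (250.2 to 258.1), Cyp1a2 at 367 FPKM (258 to 269) and the pancreatic acinar list at a mean log2 level of 2.54 (0.75 to 0.77). CD401 was high in Gpx4 at 233 FPKM (198.5 to 200.5), Tyrobp at 10.9 FPKM (4.89 to 5.88), C1qa at 22.7 FPKM (16.1 to 16.2) and Anxa2 at 6.46 FPKM (4.83 to 5.09). CD403 was high in Atf3 at 0.84 FPKM (0.29 to 0.32) and Osbpl3 at 0.72 FPKM (0.30 to 0.36), and low in Apoc2 at 238 FPKM (295 to 302) and the acute phase list at 7.53 (8.53 to 8.71). CD405 was low in the pericentral hepatocyte list at 4.47 (4.87 to 4.91).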

How the results depend on the processing

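Of 138 genes examined singly, 96 passed the test, all 96 kept their direction in every alternative and 56 passed in every alternative, and 15 of the 42 that did not pass did so in at least 1. Among those that did not pass, Cyp7a1 (-1.36 to 0.14), Scd1 (-0.20 to 0.87), Pnpla2 (-0.19 to 0.15), G6pc, Cyp2e1, Ikbkb and Ern1 changed sign between alternatives. After median ratio scaling the medians of the bile acid (0.02 to -0.08), glucose, female-biased, sinusoidal endothelium and apolipoprotein (0.04 to -0.06) lists also changed sign. The count of higher DEGs was 122, but 237 with a pseudocount of 0.1, 65 with a filter of 5 FPKM and 83 to 206 with 1 mouse left out, highest without HFD411 and lowest without HFD414. The lower DEGs (21) ranged from 15 to 30 with 1 mouse left out. Genes higher at adjusted p under 0.05 numbered 682, but 358 with the 5 FPKM filter, 392 after quantile normalization, 1625 with array weights and 277 to 1456 with 1 mouse left out. Lower genes made up 0.682% of genes tested, but 0.701% (44 of 6273) with the 5 FPKM filter, 1.22% after median ratio scaling, 1.86% after quantile normalization, 2.04% with array weights and 0.345% to 1.01% with 1 mouse left out. Fewer genes are tested with the 5 FPKM filter (6273); the cause of the other shifts was not tested. The comparison of week 16 with the mean of the other 5 weeks gave 0 to 1 genes with 1 mouse left out. No paired analysis was possible because HFD and CD mice share no number. With no counts, the precision of low FPKM values cannot be given, and 4 mice a side limit what could pass.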
